A study of Mus musculus with 10 samples.

Results

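Polycomb repressive complex 1 (PRC1) is the chromatin-bound ubiquitin ligase that places a single ubiquitin on a lysine in the tail of histone H2A. Its messenger RNAs are described here through 10 genes chosen by name: the ligases Ring1 and Rnf2, the PCGF partners Pcgf1, Pcgf2, Pcgf6 and Bmi1, the reader Cbx7, the adaptors Rybp and Yaf2, and the DNA-binding subunit Kdm2b. All 10 symbols were found among the 55487 genes of the expression tables by their Ensembl mouse identifiers. The study mapped R-loops, structures in which RNA pairs with one strand of a DNA duplex, in E14, an established mouse embryonic stem cell line. It holds 10 samples, of which 3 are RNA-seq replicates and the other 7, R-loop maps and their controls, were not analysed here. The 3 replicates form a single group of E14 cells with no genetic change named in the labels, so no contrast between conditions exists. They were grown in DMEM with 15% foetal bovine serum and leukaemia inhibitory factor (LIF), with a GSK inhibitor at 3 µM and a MEK1/2 inhibitor at 1 µM. The results are therefore the levels of these genes, their order and their spread over the replicates. Nothing in the labels says whether the replicates came from separate cultures, and p-values measure only the spread between these samples.

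A PRC1 complex is built around a catalytic pair: a RING ligase, RING1A (from Ring1) or RING1B (from Rnf2), bound to a PCGF protein. The PCGF protein decides which other subunits can join. Canonical complexes contain PCGF2 or BMI1 with a CBX protein, which reads trimethylated lysine 27 of histone H3, and a PHC protein, which can polymerise. Variant complexes carry RYBP or YAF2 in place of the CBX protein, and the variant with PCGF1 also carries KDM2B, whose zinc finger binds unmethylated CpG dinucleotides. In embryonic stem cells PRC1 keeps genes of later lineages silent, and RYBP also binds the ubiquitin mark that the complex itself makes.

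The libraries held between 5787357 and 11420425 estimated counts, with replicate 1 the deepest, and the 10 genes together held 8281, 4705 and 3289 of them in replicates 1, 2 and 3. Set at 3 counts, the detection floor was 0.263, 0.464 and 0.518 CPM (counts scaled to a common library total), which covers counting error only. The labelled cell type was checked against marker genes: all 6 stem cell markers had a TPM of at least 1 in every replicate, from Tfcp2l1 at a mean of 30.5 TPM to Nanog at 183 TPM. TPM is the deposited abundance per transcript length, scaled to the same total in each library. Of 6 fibroblast markers, included because feeder cells can accompany such cultures, 1 reached a mean TPM of 1 (Thy1, at 3.02, 3.30 and 1.19 TPM). The summed fibroblast markers were 3.22, 3.45 and 1.35 TPM, and Col3a1 and Postn were at 0 in all replicates. None of 8 markers of differentiated lineages reached a mean of 1 TPM, and their sums were 2.28, 2.26 and 1.42 TPM. Only Eomes and Sox1 among them were above the floor of 3 counts in every replicate. Eomes had 0.97, 1.05 and 0.84 TPM from 78, 62 and 52 counts. Sox1 had 0.96, 0.75 and 0.49 TPM from 122, 67 and 44 counts. These 2 markers were thus detected, at a low level.

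Most of the PRC1 genes were expressed at a moderate level, with the adaptor gene Yaf2 and the ligase gene Ring1 lowest. A TPM of at least 1 in every replicate was found for 9 of the 10 genes, against 40.8% of 21897 protein-coding genes and 17.7% of all genes. The gene below that level was Ring1. All 10 genes reached it when genes with a deposited effective length under 100 nt were left out of the TPM total. Leaving them out raised log2 TPM by 1.33, 1.55 and 1.47 in replicates 1, 2 and 3 for every gene kept. At a TPM of at least 5 the count was 6 of 10. The share of all genes was not calculated under either of these changed rules, so these counts have no background beside them. The mean level ran from 23.2 ± 6.70 TPM (SD, n = 3) for Rybp to 0.76 ± 0.044 TPM (SD, n = 3) for Ring1. The median log2(TPM + 1) over the 10 genes was 3.33 ± 0.39 (SD, n = 3), beside 2.70 ± 0.28 over the 11000 genes with a mean TPM of at least 1. All 10 genes were above the floor of 3 counts in all 3 libraries, while 7996 of 21897 protein-coding genes were above it in none. The level plot shows each replicate, with the means of 8 genes between 5.92 and 23.2 TPM and Yaf2 and Ring1 apart at the low end.

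**Figure D1:**
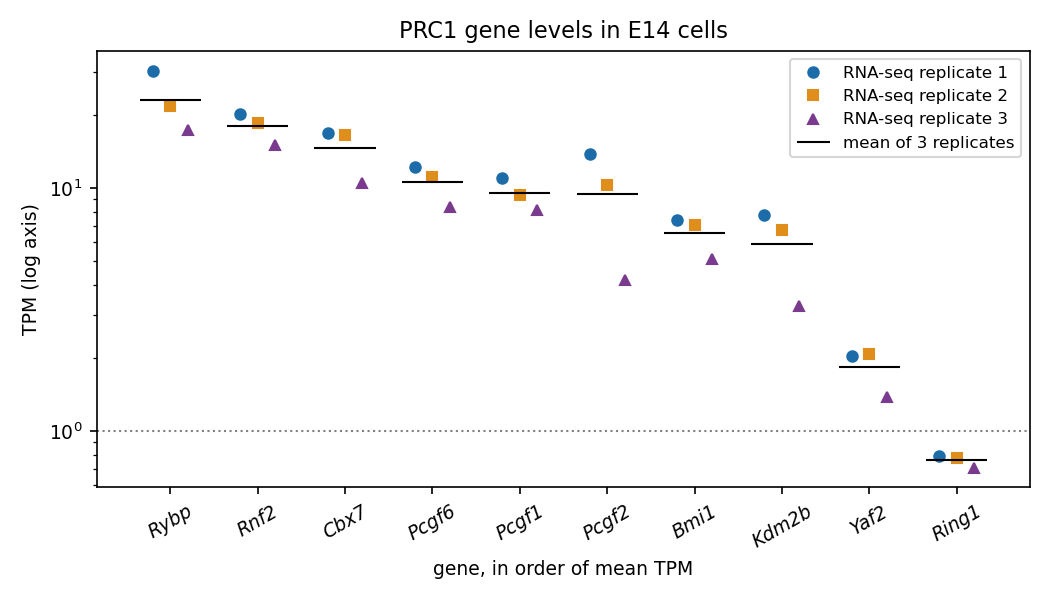
Deposited TPM of the 10 PRC1 genes in each of the 3 replicates, on a log axis, with the mean of the replicates as a line and TPM 1 dotted. Rybp is highest at a mean of 23.2 TPM, Yaf2 lies at 1.84 TPM and Ring1 lies at 0.76 TPM, and replicate 3 is the lowest point for every gene.

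The ligase transcripts came almost wholly from Rnf2. Rnf2 (ENSMUSG00000026484, chromosome 1, 151458004 to 151500955, minus strand, GRCm38), which encodes RING1B, had 1427, 867 and 623 estimated counts and 20.3, 18.5 and 15.1 TPM in replicates 1, 2 and 3. The replicates kept within a narrow band, with a mean of 17.98 ± 2.61 TPM (SD, n = 3), above 81.5% of expressed genes. Ring1 (ENSMUSG00000024325, chromosome 17, 34020792 to 34024680, minus strand), which encodes RING1A, had 45, 29 and 27 counts and 0.79, 0.78 and 0.71 TPM. Those values lie above the floor of 3 counts, which for Ring1 is 0.053, 0.081 and 0.079 TPM. Rnf2 made up 95.9% ± 0.367 (SD, n = 3) of the summed TPM of the pair, and the lowest and highest Rnf2 shares were 95.5% and 96.3%. The log2 ratio of Rnf2 to Ring1 was 4.68, 4.57 and 4.41 in replicates 1, 2 and 3, with a mean of 4.56 ± 0.13 (SD, n = 3), or 23.5-fold. The ratio was above 0 in 3 of 3 libraries. An exact two-sided sign-flip permutation test gave p = 0.25, the smallest that 3 libraries allow, and 0.3125 after Benjamini-Hochberg adjustment over 5 paralogue pairs. This test cannot pass 0.05 in this design, for this pair or the others.

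The promoter windows of the ligase pair are shown because both are rich in CpG, the dinucleotide that the KDM2B zinc finger binds when unmethylated, although their transcripts differ 23.5-fold in level. The sequences are the 250 bases before the RefSeq start (GRCm38.p6), with every CpG in capitals. RefSeq windows were found for 7 of the 10 genes. Those of Pcgf1, Rybp and Yaf2 were not matched.
Ring1, chr17:34024681-34024930, minus strand: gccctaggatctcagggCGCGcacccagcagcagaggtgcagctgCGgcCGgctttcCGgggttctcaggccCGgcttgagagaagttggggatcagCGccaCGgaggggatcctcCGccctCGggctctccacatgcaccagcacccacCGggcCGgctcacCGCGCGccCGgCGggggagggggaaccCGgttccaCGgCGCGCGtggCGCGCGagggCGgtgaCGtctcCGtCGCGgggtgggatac
Rnf2, chr1:151500992-151501241, minus strand: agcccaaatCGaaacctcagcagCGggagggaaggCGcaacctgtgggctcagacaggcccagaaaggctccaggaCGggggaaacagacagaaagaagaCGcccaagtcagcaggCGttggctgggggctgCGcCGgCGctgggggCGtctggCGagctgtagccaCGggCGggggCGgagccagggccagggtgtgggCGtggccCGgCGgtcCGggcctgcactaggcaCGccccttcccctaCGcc
The Ring1 window holds 30 CpG and the Rnf2 window holds 20, where the median over 32851 mouse windows of this length is 6. The Ring1 window thus has more CpG than 94.1% of windows, and the Rnf2 window more than 82.1%. The less abundant transcript has the window with more CpG. No R-loop or methylation value was set against these windows.

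The PCGF level was spread over several genes, with the highest share in a replicate at 28.9%. Summed over the 6 PCGF genes, TPM was 51.6, 44.8 and 28.9 in replicates 1, 2 and 3. Pcgf6 (ENSMUSG00000025050, chromosome 19, 47033617 to 47050906, minus strand), the partner found with MGA, MAX and E2F6, had 12.3, 11.1 and 8.36 TPM from 686, 437 and 328 counts. Its share was 25.9% ± 2.70 (SD, n = 3). Pcgf1 (ENSMUSG00000069678, chromosome 6, 83077869 to 83080855, plus strand), the partner of KDM2B and BCOR, had 11.0, 9.40 and 8.13 TPM from 210, 122 and 107 counts, a share of 23.5% ± 4.004 (SD, n = 3). The log2 ratio of Pcgf6 to Pcgf1 was 0.15 ± 0.10 (SD, n = 3) and above 0 in 3 of 3 libraries (exact permutation p = 0.25, adjusted p = 0.3125). On counts without length scaling it was 1.72, since the Pcgf6 transcripts are longer.

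Pcgf2 and Bmi1 encode the partners of canonical complexes, and Pcgf2 was the least steady of the 10 genes. Pcgf2 (ENSMUSG00000018537, chromosome 11, 97688823 to 97700497, minus strand), also known as Mel18, had 13.9, 10.4 and 4.18 TPM from 506, 269 and 111 counts. Replicate 3 was lowest by a wide margin, and the mean was 9.47 ± 4.91 TPM (SD, n = 3), a coefficient of variation of 51.8%. Bmi1 (ENSMUSG00000026739, chromosome 2, 18677018 to 18686629, plus strand), known for its role in stem cell self-renewal in blood and brain, had 7.43, 7.06 and 5.11 TPM from 376, 210 and 164 counts. The Pcgf2 share of PCGF transcripts was 26.9%, 23.2% and 14.5% in replicates 1, 2 and 3, while the Bmi1 share was 14.4%, 15.8% and 17.7%. The log2 ratio of Pcgf2 to Bmi1 was 0.90, 0.55 and -0.29, so Pcgf2 was higher in 2 of 3 libraries and lower in replicate 3 (exact permutation p = 0.5, adjusted p = 0.5). Without replicate 3 the mean ratio was 0.73, and with it 0.39 ± 0.61 (SD, n = 3). The other PCGF genes were lower: Pcgf3 held 9.10% ± 2.17 (SD, n = 3) of the sum and Pcgf5 held 4.11% ± 0.181 (SD, n = 3).

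The promoter windows of the canonical pair are shown because their CpG content differs most among the paralogues with a window, and because they are the 2 of 10 windows that hold the E-box CACGTG.
Pcgf2, chr11:97699649-97699898, minus strand: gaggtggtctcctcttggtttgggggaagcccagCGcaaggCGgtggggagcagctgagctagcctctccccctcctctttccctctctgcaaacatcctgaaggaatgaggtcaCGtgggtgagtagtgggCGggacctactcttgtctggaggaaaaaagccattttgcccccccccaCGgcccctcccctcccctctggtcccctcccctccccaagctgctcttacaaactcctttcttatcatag
Bmi1, chr2:18676768-18677017, plus strand: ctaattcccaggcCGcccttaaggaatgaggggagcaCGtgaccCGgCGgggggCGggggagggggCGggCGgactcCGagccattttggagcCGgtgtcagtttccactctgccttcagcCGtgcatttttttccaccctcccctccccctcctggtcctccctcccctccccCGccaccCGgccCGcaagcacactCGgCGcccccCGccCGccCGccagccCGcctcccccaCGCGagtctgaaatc
The Pcgf2 window has 5 CpG, more than 44.4% of mouse windows, and is the only window of the 10 at or below the median of 6. A further coding Pcgf2 transcript is annotated to start upstream of this window, at 97700497. No window was matched at that start, so the count does not describe every Pcgf2 promoter. The Bmi1 window has 21, more than 83.7% of windows. CACGTG, searched on both strands, was in 6.02% of all windows. The motifs TTCCCGC and TATAAA, searched the same way, were in 3.82% and 12.4% of all windows. They were in 0 of the 10 PRC1 windows, of which 4 belong to Kdm2b. A match or its absence describes the letters of a window and not the binding of a factor.

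**Figure D2:**
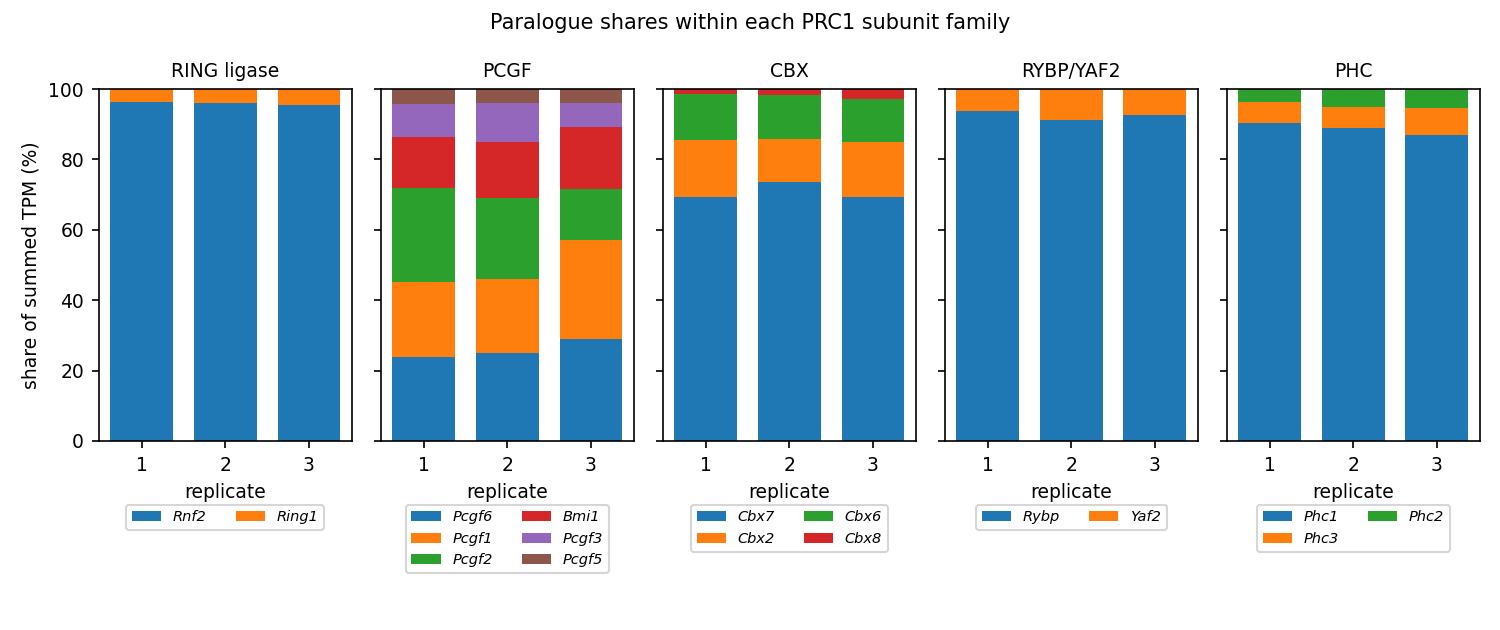
Share of summed TPM held by each paralogue within 5 PRC1 subunit families, for each of the 3 replicates, with each bar summing to 100%. Rnf2, Rybp, Cbx7 and Phc1 hold most of their families, at 95.9%, 92.5%, 70.7% and 88.7%, whereas the PCGF family is split among several genes.

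Among the 4 genes compared for CBX readers of the H3 mark, Cbx7 was the most abundant. Cbx7 (ENSMUSG00000053411, chromosome 15, 79915807 to 79971119, minus strand) had 16.9, 16.5 and 10.5 TPM from 961, 574 and 426 counts. Replicates 1 and 2 were nearly equal and replicate 3 was lower. Cbx7 held 70.7% ± 2.53 (SD, n = 3) of the TPM summed over Cbx2, Cbx6, Cbx7 and Cbx8. Cbx2 followed at 14.6% ± 2.23, Cbx6 at 12.6% ± 0.384 and Cbx8 at 2.03% ± 0.668 (SD, n = 3). The log2 ratio of Cbx7 to Cbx2 was 2.09, 2.61 and 2.16, a mean of 2.28 ± 0.28 (SD, n = 3), or 4.87-fold, and above 0 in 3 of 3 libraries (exact permutation p = 0.25, adjusted p = 0.3125). The size of this lead depended on length scaling: with counts per union of annotated exons in place of TPM, the Cbx7 share was 52.6% and the log2 ratio to Cbx2 was 0.90. The PHC family, which polymerises canonical PRC1, was dominated by Phc1 at 64.2, 41.8 and 23.6 TPM, or 88.7% ± 1.69 (SD, n = 3) of the family.

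The RYBP and YAF2 adaptors, which take the place of the CBX protein in variant complexes, were also unequal in level. Rybp (ENSMUSG00000072872, chromosome 6, 100228565 to 100287485, minus strand) had 3356, 1756 and 1291 counts and 30.5, 21.7 and 17.3 TPM. It was the most abundant of the 10 genes in every replicate and lay above 85.4% of expressed genes. Yaf2 (ENSMUSG00000022634, chromosome 15, 93284278 to 93336935, minus strand) had 87, 63 and 43 counts and 2.05, 2.09 and 1.39 TPM, above 15.4% of expressed genes. Rybp held 92.5% ± 1.24 (SD, n = 3) of the pair. The log2 ratio of Rybp to Yaf2 was 3.90, 3.38 and 3.64, with a mean of 3.64 ± 0.26 (SD, n = 3), or 12.4-fold, and above 0 in 3 of 3 libraries (exact permutation p = 0.25, adjusted p = 0.3125).

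Kdm2b (ENSMUSG00000029475, chromosome 5, 122870665 to 122989823, minus strand) encodes the histone demethylase subunit that brings the PCGF1 complex to CpG islands. It had 7.78, 6.72 and 3.27 TPM from 627, 378 and 170 counts. Replicate 3 was the low one, and the mean was 5.92 ± 2.36 TPM (SD, n = 3), near the middle of expressed genes with 51.5% of them below. RefSeq gives Kdm2b 4 start sites in an upstream and an internal group, 88749 bases apart between the outermost. The internal start gives the short form, which keeps the zinc finger and lacks the demethylase domain. A window from each group is shown because the gene total cannot tell which start was used.
Kdm2b upstream start, chr5:122989100-122989349, minus strand: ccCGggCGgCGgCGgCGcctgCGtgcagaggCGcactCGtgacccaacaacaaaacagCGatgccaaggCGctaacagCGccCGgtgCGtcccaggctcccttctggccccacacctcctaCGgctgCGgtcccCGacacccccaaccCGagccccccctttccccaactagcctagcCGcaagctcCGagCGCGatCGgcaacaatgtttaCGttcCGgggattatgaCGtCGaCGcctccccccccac
Kdm2b internal start, chr5:122900368-122900617, minus strand: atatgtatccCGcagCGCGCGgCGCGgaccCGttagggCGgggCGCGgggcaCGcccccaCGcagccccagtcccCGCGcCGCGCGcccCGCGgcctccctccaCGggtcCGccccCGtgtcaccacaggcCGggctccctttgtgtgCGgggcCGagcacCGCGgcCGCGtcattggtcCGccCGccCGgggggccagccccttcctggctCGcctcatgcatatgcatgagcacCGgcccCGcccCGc
The upstream window holds 27 CpG, more than 91.4% of mouse windows, and the internal window holds 36, more than 97.4%. The other upstream window holds 12 CpG, more than 66.5% of windows, and the other internal window 38. Over all 10 windows of the 7 matched genes, 9 had more CpG than the median window. Kdm2b gave 4 of the 10, and its 2 internal windows cover nearly the same bases, so the 10 windows are not independent.

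The order of the 10 genes by mean TPM was Rybp, Rnf2, Cbx7, Pcgf6, Pcgf1, Pcgf2, Bmi1, Kdm2b, Yaf2 and Ring1. The ranges over the 3 replicates overlapped between all neighbours in this order except at the low end. Kdm2b lay above Yaf2 with a log2 ratio of 1.61 ± 0.35 (SD, n = 3), and Yaf2 above Ring1 with 1.26 ± 0.25 (SD, n = 3), in 3 of 3 libraries each. Within a library the first 4 steps kept their direction in 3 of 3 libraries. Those steps were 0.34 ± 0.22 from Rybp to Rnf2, 0.32 ± 0.19 from Rnf2 to Cbx7, 0.45 ± 0.12 from Cbx7 to Pcgf6 and 0.15 ± 0.10 from Pcgf6 to Pcgf1, as log2 ratios (SD, n = 3). The order of Pcgf1, Pcgf2, Bmi1 and Kdm2b was not fixed: Pcgf1 was above Pcgf2 in 1 of 3 libraries, Pcgf2 above Bmi1 in 2 of 3 and Bmi1 above Kdm2b in 2 of 3.

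Replicate 3 had the lowest TPM for all 10 genes, which is also where 75.6% of the 11000 expressed genes had their lowest TPM. The median log2 difference of replicate 3 from the mean of replicates 1 and 2 was -0.54 on deposited TPM for the 10 genes and -0.46 for all genes tested. On CPM scaled by the trimmed mean of M-values (TMM), which sets the median of all genes near 0, the median over the 10 genes was -0.05 and that over all 12577 genes tested was 0.00. On that scale 7 of 10 genes were lower in replicate 3 and 3 were higher, while 49.7% of all genes tested were lower. Several of the 10 lay near 0, among them Yaf2 at -0.04 and Pcgf6 at 0.01 (log2). Rybp differed by -0.17, Rnf2 by -0.09, Cbx7 by -0.06 and Bmi1 by -0.03 (log2), while Pcgf1 differed by 0.16 and Ring1 by 0.31. The 2 genes that stood apart were Pcgf2 at -0.98 and Kdm2b at -0.77. A difference below -0.5 was thus seen in 2 of 10 genes, and in 11.1% of all genes tested. On the same scale the median of the 6 stem cell markers was 0.09, with 2 of 6 below 0, and Thy1, the 1 fibroblast marker that could be tested, was at -0.90. The part of other cells in these differences was not tested. In bulk RNA, fewer cells of a type and less RNA per cell cannot be told apart.

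**Figure D3:**
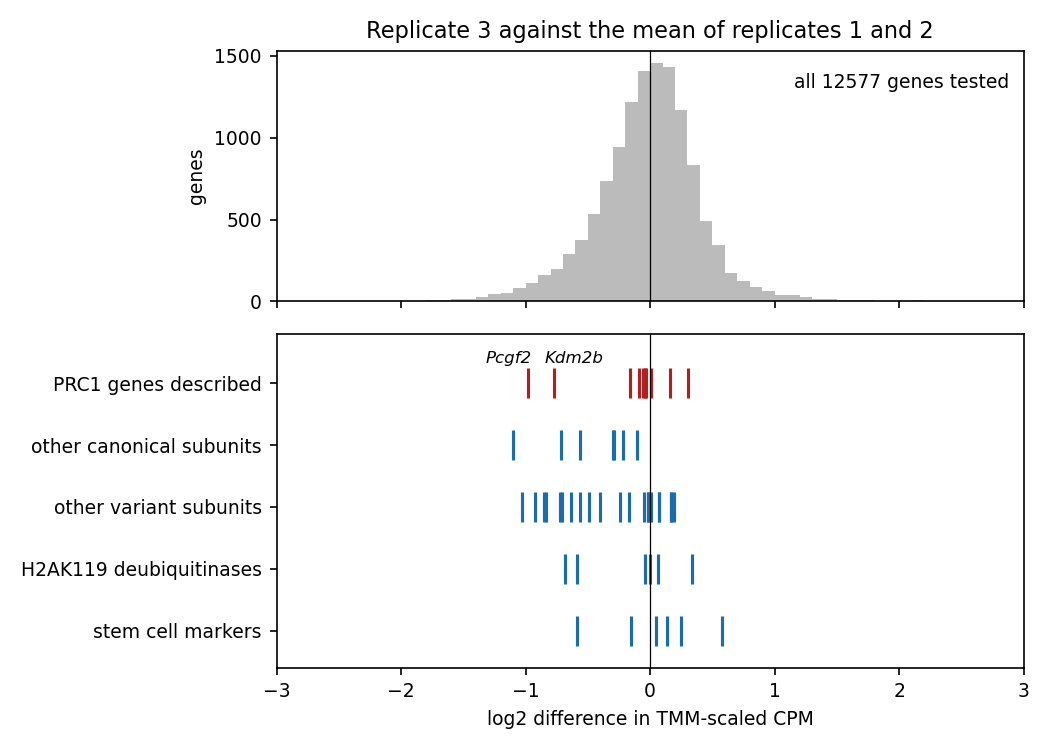
Log2 difference in TMM-scaled CPM between replicate 3 and the mean of replicates 1 and 2, as a histogram over all 12577 genes tested (top) and as a tick per gene for the PRC1 genes and the other lists (bottom). Pcgf2 at -0.98 and Kdm2b at -0.77 lie in the low tail, and the other 8 PRC1 genes lie between -0.17 and 0.31.

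No gene of the 10 was called as varying beyond the trend of all genes in edgeR's goodness-of-fit test, in which 1.84% of genes tested were called after Benjamini-Hochberg adjustment (threshold 0.05). The count was also 0 with DESeq2 size factors. Before adjustment 2 of 10 genes were under 0.05, beside 6.96% of all genes. Pcgf2 had 42.2, 40.3 and 20.8 TMM-scaled CPM in replicates 1, 2 and 3, with an unadjusted p of 0.0066 and an edgeR adjusted p of 0.208. Of all genes tested, 2.3% had a lower difference. Kdm2b had 52.2, 56.6 and 31.8 TMM-scaled CPM, with an unadjusted p of 0.0308 and an edgeR adjusted p of 0.552. The edgeR adjusted p of the other 8 genes was 1. A p that misses the threshold does not show that a level was steady. Replicate 3 deviated by gene length over the whole table, with the shortest genes higher and the longest lower. The median difference of genes in the length decile of Pcgf2 was 0.10 and in that of Kdm2b -0.05. Gene length as a cause of the low values of these genes was not tested. With a correction for gene length in the same edgeR fit, 1.49% of genes were called and Pcgf2 was among them with an adjusted p of 0.048. Its adjusted p ran from 0.048 to 0.999 over the alternatives tried, the highest being without replicate 3.

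Transcript forms bear on several of these totals, because RSEM weights the length of a gene by the abundance of its transcripts. Pcgf6 had a weighted length of 2197, 2212 and 2200 nt, longer than its longest coding transcript of 2159 nt. At least 5.7%, 7.9% and 6.0% of its transcripts were therefore assigned to non-coding forms, the longest a retained-intron transcript of 2832 nt. For Ring1 the weighted length was 2249, 2096 and 2133 nt against a coding transcript of 2034 nt, so at least 41.6%, 11.9% and 19.2% were assigned to a retained-intron form of 2552 nt. Part of the small Ring1 total is thus not the coding transcript, although the estimate rests on 45, 29 and 27 counts. Yaf2 has a coding transcript of 1676 nt and a longer form of 1870 nt that is annotated for nonsense-mediated decay, and the longer form had 15.6%, 32.1% and 47.6% of transcripts. The Yaf2 shares rest on 87, 63 and 43 counts.

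The other genes had weighted lengths below their longest coding transcript, from which no share of forms follows except for Rybp. Rybp, at 4196, 4405 and 4054 nt, lay near its only coding transcript, of 4503 nt. Its other annotated forms are retained-intron transcripts of 680 and 412 nt, so a part of its transcripts was assigned to them in each replicate. The size of that part was not calculated. Rnf2 was at 2734, 2612 and 2301 nt against a longest coding transcript of 3201 nt. Kdm2b was at 3108, 3111 and 2862 nt, below both its longest coding transcript of 5180 nt and the coding transcript of 3532 nt that starts at the internal site, and its 20 annotated transcripts could not be separated. The length plot sets the weighted lengths beside the annotated ones.

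**Figure D4:**
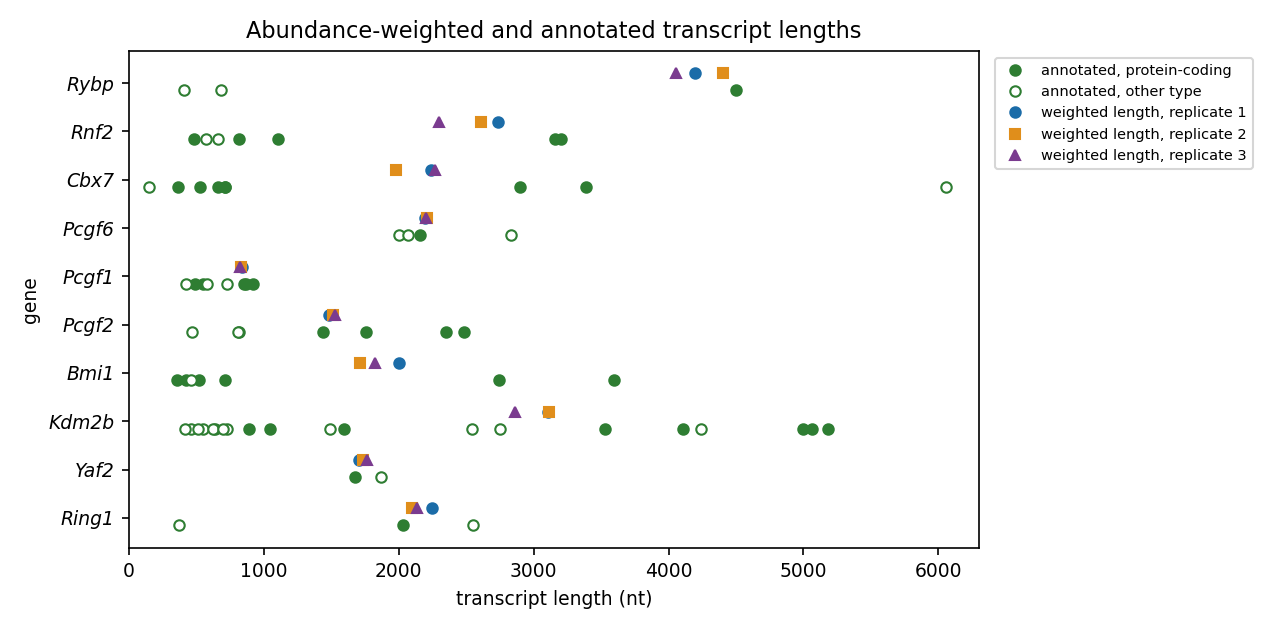
Abundance-weighted transcript length of each PRC1 gene in 3 replicates, above the exonic lengths of its annotated transcripts (filled, protein-coding; open, other types), in nucleotides. Ring1, Yaf2 and Pcgf6 lie to the right of their longest coding transcript, and Kdm2b lies at 2862 to 3111 nt, below its longest at 5180 nt.

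Reads of some genes could be shared with other loci. Estimated counts were not whole for Rybp and Kdm2b in all 3 replicates and for Bmi1 in replicate 2, within a tolerance of 0.005, so a part of their reads was divided with other genes. That is 3 of 10 genes, beside 22.7% of the 11000 expressed genes. Exons overlapped a gene on the opposite strand for Rnf2 (Trmt1l, 158 bp), Cbx7 (Apobec3, 100 bp) and Kdm2b (Rnf34, 627 bp, and A930024E05Rik, 199 bp). Kdm2b exons also overlapped Gm44574 on the same strand by 124 bp, and Gm44574 had 0 counts in every replicate. Apobec3 had 22.6, 17.4 and 13.7 TPM, above Cbx7 in each replicate, and Rnf34 had 10.4, 10.5 and 9.62 TPM, above Kdm2b in each. Whether the counting used strand is not given in the sources used here, so reads in these overlaps are uncertain. The antisense gene A930024E05Rik, which starts 469 bp from the Kdm2b start, had 0.15, 0.12 and 0.09 TPM.

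Most other PRC1 subunit genes examined were expressed, against the 40.8% of protein-coding genes with a TPM of at least 1 in every replicate. Of 21 further subunits of variant complexes, 19 had a TPM of at least 1 in all replicates, from Bcor at a mean of 1.27 TPM to Skp1a at 72.0 TPM. BCOR is the corepressor of the PCGF1 complex and SKP1 binds the F-box of KDM2B. Of 8 further canonical subunits, 6 were at TPM 1 or more in all replicates, from Cbx8 at a mean of 0.397 TPM to Phc1 at 43.2 TPM. Among 7 genes for H2A deubiquitinases and their cofactors, which remove the PRC1 mark, 6 reached a TPM of 1 in all replicates, Bap1 was highest at 14.6, 10.4 and 7.20 TPM and Asxl3 lowest at a mean of 0.06 TPM. None of these genes was called in the edgeR variability test. Before adjustment, p was under 0.05 for 5 of 21 variant, 1 of 7 tested canonical and 0 of 6 tested deubiquitinase genes, beside 6.96% of all genes. The median difference of replicate 3 was -0.24 for the variant list, -0.30 for the canonical list and -0.02 for the deubiquitinases (log2), with 8 of 21, 3 of 7 and 2 of 6 below -0.5, beside 11.1% of all genes.

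Genes known as Polycomb targets were mostly near 0 in the same libraries. Of 15 such genes, 1 reached a mean TPM of 1, beside 9680 of 21897 protein-coding genes. The median of the means was 0.06 TPM, beside 0.46 TPM over the protein-coding genes. The gene that reached a mean TPM of 1 was Cdkn2a, at 3.97, 4.86 and 4.36 TPM. It is the cell cycle inhibitor locus repressed by BMI1 in other settings. A further 7 genes had at most 3 counts in every library, as had 7996 of the 21897 protein-coding genes. Of the 7, 3 (Hoxb1, Nkx2-2 and Olig2) were at 0 in all, as were 5711 protein-coding genes. Lower levels were thus not detectable at this depth. No sample with altered PRC1 was analysed here, so these levels were not tested against PRC1.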

How the data were processed

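RNA-seq was done by the submitters on Trizol-extracted total RNA after DNase treatment and ribosomal RNA depletion, with a directional library kit, per the labels' protocols. The submitters' processing notes name STAR, RSEM and mm10. Versions, the annotation release and the strand setting are not given in the sources used here. The authors deposited estimated counts (RSEM expected counts) without normalization, and TPM in the same tables, per the file headers. FPKM values that the authors deposited were left unused; the tables also give length and effective length in nucleotides.

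Names and coordinates came from GENCODE vM21 (GRCm38), in which 55141 of 55487 identifiers were found, 98.83% of them with the same transcripts as in the tables. The 10 genes and the other lists were chosen with earlier results of these data known. Genes named beyond the 10 are their paralogues, the highest and lowest of each list and overlapping neighbours. Hoxb1, Nkx2-2, Olig2, Col3a1, Postn and Sox1 were named after their values were seen. Some genes of these families and lists are not reported here and are in no share or count over them.

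TPM was used for levels and for shares within paralogue families, since it is per length; genes of a mean TPM of at least 1 are called expressed. Counts were rounded and fitted with edgeR 4.0.16 (R 4.3.3, TMM, filterByExpr, intercept only), and deviance under the trended dispersion was tested by goodness of fit with Benjamini-Hochberg adjustment over 12577 genes at 0.05. Differences of replicate 3 used log2 CPM with a prior count of 2. Paralogue ratios used an exact sign-flip permutation test (scipy 1.17.1). Alternatives changed normalization (DESeq2 1.42.0 size factors), filters, pseudocount, dispersion, length scaling and the replicates used. The variability test was tested on simulated data. Promoter windows came from RefSeq (GRCm38.p6).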

Additional observations from a re-analysis of the deposited data

How the results depend on the processing

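Of 197 alternatives to 35 results, 166 stayed within the replicate spread, on the same side of the threshold or, for counts, within 1.5 times. Of the rest, 30 moved, 1 passed the threshold and 0 changed direction. The 1 was Pcgf2 with the length correction, which also enters the 30 as the changed count of PRC1 genes called. For shares, ratios and levels, leaving out 1 of 3 replicates cannot move a mean by as much as its SD. Those alternatives are counted among the 166, were bound to stay and do not test stability. The level without a filter on low values repeats the main value. Without length scaling the share of Rnf2 was 96.5%, of Rybp 96.9% and of Cbx7 52.2%, and per union exon length that of Cbx7 was 52.6%. Without length scaling the log2 ratio was 4.81 for Rnf2 to Ring1, 4.99 for Rybp to Yaf2, 1.72 for Pcgf6 to Pcgf1 and 1.503 for Cbx7 to Cbx2, which was 0.90 per union exon length. With a pseudocount of 1 the ratios were 3.42 for Rnf2, 3.06 for Rybp and 1.95 for Cbx7. The median level of the PRC1 genes was 4.69 (log2) with genes of an effective length under 100 nt left out of the TPM total. All 10 TPM values rose with those genes left out. On CPM the median level was 5.40 (log2). With the length correction 1 of 10 genes varied beyond the trend (Pcgf2, adjusted p = 0.048 in edgeR). Leaving out each replicate in turn called 63 to 93 of all genes, against 232 with all 3. The deviation of replicate 3 had a median of -0.54 on deposited TPM and -0.12 against replicate 2 alone. The causes were not tested, beyond the length scaling, the pseudocount and the loss of a sample that these alternatives are made of. No paired analysis was possible because the RNA-seq samples form a single group, so their replicate numbers pair nothing. Depth limits Ring1 and Yaf2, which have under 100 counts per library.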
